A study of Mus musculus with 4 samples.

Results

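The genes that copy DNA in S phase were followed in CD4+ T cells taken from the inflamed colon. The 43 genes were picked by symbol from the 16555 rows of the deposited table and covered origin licensing, the replication fork, nucleotide supply, chromatin assembly and the switch from G1 into S. All 43 were in the table, and all 43 were among the 16490 genes tested. RNA sequencing gave 2 libraries of CK2α fl/fl dLck-Cre cells and 2 libraries of CK2α fl/fl cells. In both groups the donor T cells, sorted as CD4+CD25-CD45RBhi, carried floxed alleles of CK2α, the catalytic subunit of the kinase CK2. Donors of the first group also carried the dLck-Cre transgene, in which the distal Lck promoter switches on Cre once T cells are mature. Recipients were Rag1-/- mice, which make no T or B cells of their own and develop colitis after such a transfer. Colonic CD45+CD3+CD4+ cells were collected 6 weeks later. No age of the animals is given in these sources.

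Before S phase, the origin recognition complex (ORC), Cdc6 and Cdt1 load the MCM2-7 helicase onto origins, a step called licensing. Cdc45, the GINS complex and Mcm10 then turn the loaded helicase into a moving fork, and DNA polymerases copy the strands behind it with the sliding clamp Pcna, its RFC loader and the single-strand binding protein RPA. Many of these genes are transcribed at the G1/S boundary under E2F factors, so that their RNA is abundant in cycling cells and low in resting ones. T cells that expand in a lymphopenic host and in an inflamed gut divide, and these genes are commonly read as a sign of that.

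The libraries held between 16777017 and 22422971 recovered reads, and every listed gene had at least 41 reads in total. Replicates were further apart than sampling noise, since the chi-square per member gene was 25.03 between the dLck-Cre-labelled libraries and 45.4 between the fl/fl libraries. The targeted gene was not lower where its loss is labelled. Csnk2a1, which encodes CK2α, had 2118 and 2031 normalized counts in the dLck-Cre-labelled libraries, against 1534 and 1597 in the fl/fl libraries (log2 difference 0.41 ± 0.13, SE; limma, adjusted p = 0.108). The gene-level table does not separate the deleted exons, so the labels could not be checked by this gene, and each direction given here is that between the labelled libraries. Of 20 T cell genes, 7 passed the limma test as lower in the dLck-Cre-labelled libraries, where 1.22% of all genes did, and none as higher. Cd27 was the 1 gene of the list with a difference above 0 in the dLck-Cre-labelled libraries (log2 0.55, limma, adjusted p = 0.344). Cd3e, a chain of the T cell receptor complex, had 1053 and 1153 there and 1574 and 1789.6 in the fl/fl libraries (log2 -0.61 ± 0.14, limma, adjusted p = 0.0482). This call was lost under TMM (limma, adjusted p = 0.0504), quantile normalization (0.0793) and limma without trend (0.167), and without any 1 library (0.0762 to 0.208). Markers of some other cells moved the other way. By limma 17 of 20 tested epithelial genes and 15 of 20 genes of monocytes, macrophages and dendritic cells were higher, where 5.75% of all genes were. So were 3 of 5 tested B and plasma cell genes. Few or none were higher in the other lists, with 1 of 8 granulocyte and mast cell genes and 1 of 7 CD8 T and NK cell genes. For stromal, endothelial and erythroid genes it was 0 of 11. The summed epithelial genes took 0.455% and 0.572% of counts in the dLck-Cre-labelled libraries, against 0.188% and 0.201% in the fl/fl libraries. The summed myeloid genes took 0.501% and 0.409%, against 0.250% and 0.143%. The B and plasma cell genes Ms4a1, Cd79b and Jchain matched no row of the table, and neither did the epithelial gene Olfm4. Dividing cells of these kinds can also express replication genes, and their part in the results that follow was not tested.

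Promoter sequences are shown because E2F motifs before the gene start are a known feature of this gene class. RefSeq windows from 250 bases before to 50 bases after the gene start (GRCm38.p6, the assembly of mm10) were found for 36 of the 43 genes; Mcm4, Gins1, Gins2, Gins4, Pole, Rfc2 and Ccne2 had none. An E2F motif, searched as TTTCCCGC, TTTGGCGC, TTTGCCGC or TTTCGCGC on both strands, was present in 14 of the 36 genes (38.9%), against 481 of 10896 tested genes with a window (4.41%). It was found in 1 of 20 mitosis genes (5%) and in 0 of 10 T cell genes. The promoter element CCAAT, searched on both strands, was present in 22 of the 36 (61.1%), in 80% of the mitosis genes and in 42.1% of all genes with a window. Bases before the RefSeq gene start are printed for Mcm6, the 1 called gene, and for Mcm5, Orc1, Cdc6 and Pola1, which also hold a motif there. Beside them stand Mcm10, the 1 gene with a difference above 0, and Pcna, the gene with the highest level, which hold none. They run 5′ to 3′ on the gene's strand with E2F motifs in capitals. Those of Mcm6 come from chr1:128359706-128359905 (minus strand), of Mcm5 from chr8:75109309-75109508 (plus strand), of Orc1 from chr4:108579254-108579453 (plus strand), of Cdc6 from chr11:98907951-98908150 (plus strand) and of Pola1 from chrX:93632156-93632355 (minus strand). Those of Mcm10 come from chr2:5012792-5012991 (minus strand) and of Pcna from chr2:132253181-132253380 (minus strand). GENCODE vM21 starts Cdc6 (chr11:98907801), Orc1 (chr4:108579423) and Pcna (chr2:132253314) further upstream. By that annotation the Cdc6 stretch lies wholly inside the gene, and those of Orc1 and Pcna lie inside in part. The marked motifs of Cdc6 and Orc1 then fall after the start.
Mcm6: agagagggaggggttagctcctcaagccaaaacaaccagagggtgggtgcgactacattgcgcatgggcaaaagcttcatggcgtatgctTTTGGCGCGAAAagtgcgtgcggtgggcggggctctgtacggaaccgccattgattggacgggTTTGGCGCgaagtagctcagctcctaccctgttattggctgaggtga
Mcm5: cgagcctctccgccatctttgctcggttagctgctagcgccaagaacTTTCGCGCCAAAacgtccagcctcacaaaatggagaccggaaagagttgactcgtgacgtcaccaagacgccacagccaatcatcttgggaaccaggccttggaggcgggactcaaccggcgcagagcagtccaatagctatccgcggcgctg
Orc1: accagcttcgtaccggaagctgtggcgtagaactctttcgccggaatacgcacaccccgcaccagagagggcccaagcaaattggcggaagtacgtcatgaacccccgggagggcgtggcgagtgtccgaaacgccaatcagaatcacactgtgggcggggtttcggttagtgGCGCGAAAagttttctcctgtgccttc
Cdc6: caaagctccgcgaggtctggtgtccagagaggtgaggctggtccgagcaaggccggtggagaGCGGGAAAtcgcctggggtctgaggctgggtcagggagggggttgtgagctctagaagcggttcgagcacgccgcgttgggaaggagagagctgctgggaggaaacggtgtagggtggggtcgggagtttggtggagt
Pola1: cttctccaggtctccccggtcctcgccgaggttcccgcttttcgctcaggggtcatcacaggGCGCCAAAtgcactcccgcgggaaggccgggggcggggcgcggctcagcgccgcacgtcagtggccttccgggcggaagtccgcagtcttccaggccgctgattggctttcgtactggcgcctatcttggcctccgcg
Mcm10: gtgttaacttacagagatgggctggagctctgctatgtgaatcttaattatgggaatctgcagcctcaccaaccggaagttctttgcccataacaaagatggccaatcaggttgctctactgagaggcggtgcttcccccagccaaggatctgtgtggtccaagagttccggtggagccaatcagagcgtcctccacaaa
Pcna: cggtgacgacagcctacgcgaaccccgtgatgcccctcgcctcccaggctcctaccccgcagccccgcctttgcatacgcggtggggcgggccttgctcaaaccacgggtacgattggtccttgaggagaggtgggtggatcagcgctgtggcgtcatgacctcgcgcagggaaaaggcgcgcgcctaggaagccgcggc
In Mcm6 a pair of matches on opposite strands overlapped, at positions -110 and -106 from the start, and another match lay at -47. Mcm5 likewise had overlapping matches on opposite strands, at -153 and -149. A match describes these letters only and is not evidence that a factor binds there, and a window without one says nothing of the factor.

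**Figure D1:**
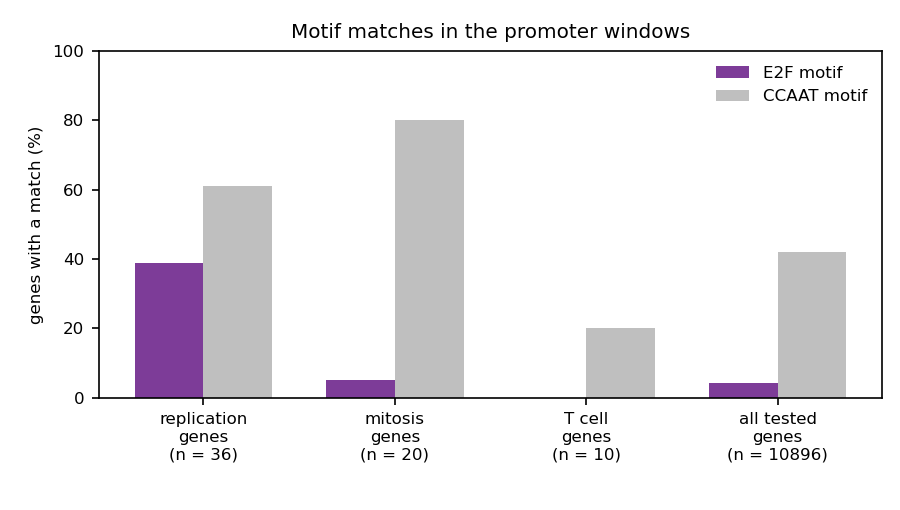
Share of genes (%, bars from 0) whose RefSeq promoter window held an E2F motif or CCAAT, for the replication genes, mitosis genes, T cell genes and all tested genes with a window. E2F motifs were in 38.9% of the replication genes and in 4.41% of all genes, while CCAAT was most frequent in the mitosis genes (80%).

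Levels were first ranked per kilobase of annotated exon sequence (GENCODE vM21). Pcna, the sliding clamp, stood highest, at 2062 and 2677 normalized counts per kb in the dLck-Cre-labelled libraries and 2748 and 2181 in the fl/fl libraries. No other member reached its lowest library. Mcm6 came next with a mean of 753 per kb over the 4 libraries, ahead of Dut at 636, Mcm5 at 582, Rrm2 at 551, Rpa1 at 538, Mcm3 at 536, Mcm4 at 492, Uhrf1 at 456 and Mcm7 at 448. From Mcm6 to Mcm7 each gene overlapped the next in this order over its 4 libraries. Mcm2 lay at 226 per kb, lower than the other 5 subunits of the helicase ring, which is built from 1 copy of each; its exon union of 6956 bases is also the longest of the 6. At the bottom were Gins2 at 41.0, Orc1 at 43.7 and Mcm10 at 45.2 per kb. The exon union counts every annotated exon and was not fitted to the transcripts present, which limits comparison between genes.

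**Figure D2:**
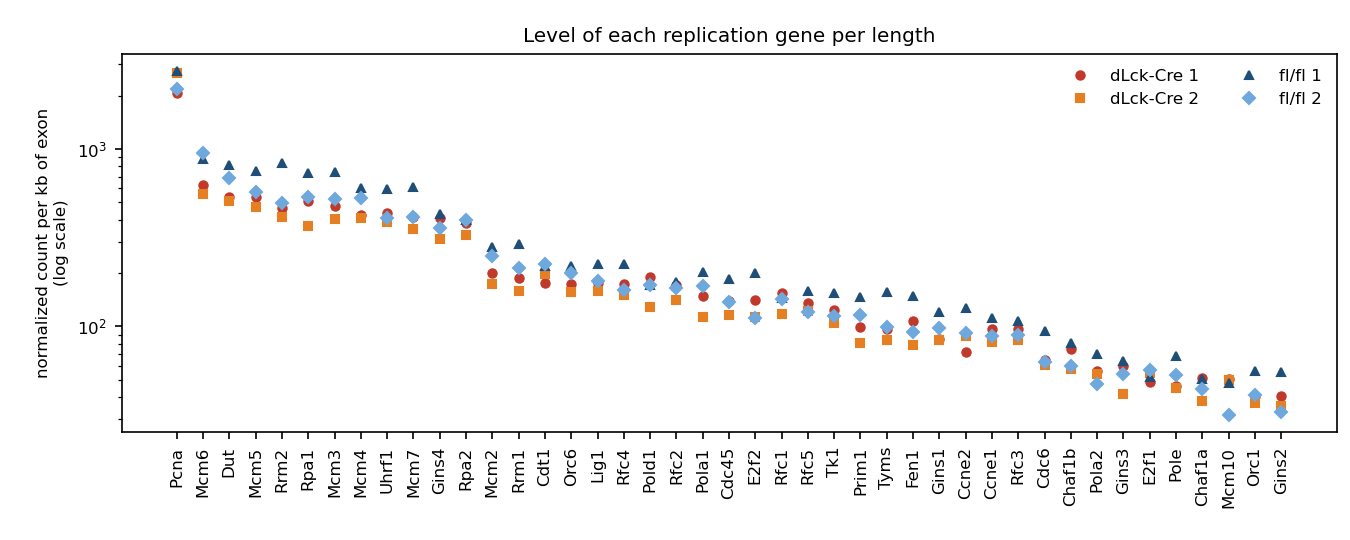
Normalized counts per kilobase of exon union (log axis) for the 43 genes in rank order, with 1 point for each of the 4 libraries. Pcna stands apart at the top with a mean of 2417, and Gins2, Orc1 and Mcm10 lie at the bottom near 41.0 to 45.2.

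The comparison of the genotypes asks whether donor cells labelled as lacking CK2α carried less replication RNA in the colitic gut. The replication genes leaned lower in the dLck-Cre-labelled libraries, with differences below 0 for 42 of 43 genes and a median of -0.27 on the log2 scale (range -0.63 to 0.37). By limma 1 of the 43, Mcm6, passed as lower, where 1.22% of all genes tested did, and 0 passed as higher, where 5.75% did. At an unadjusted p under 0.05, 9 of the 43 were lower and 0 higher, against 8.9% and 15% of all genes. edgeR called 1 lower and 0 higher (background 1.04% and 5.83%), and so did DESeq2 (2.55% and 8.17%). Over all genes tested the median difference was -0.02, and 52.3% of them lay below 0. Both dLck-Cre-labelled libraries lay below both fl/fl libraries for 21 of the 43 genes, where 27.4% of all genes did so. The reverse order held for 1 gene, Mcm10, where 27.7% of all genes showed it, and the other 21 overlapped. In bulk RNA, fewer cells in S phase and less of this RNA per cell cannot be told apart.

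**Figure D3:**
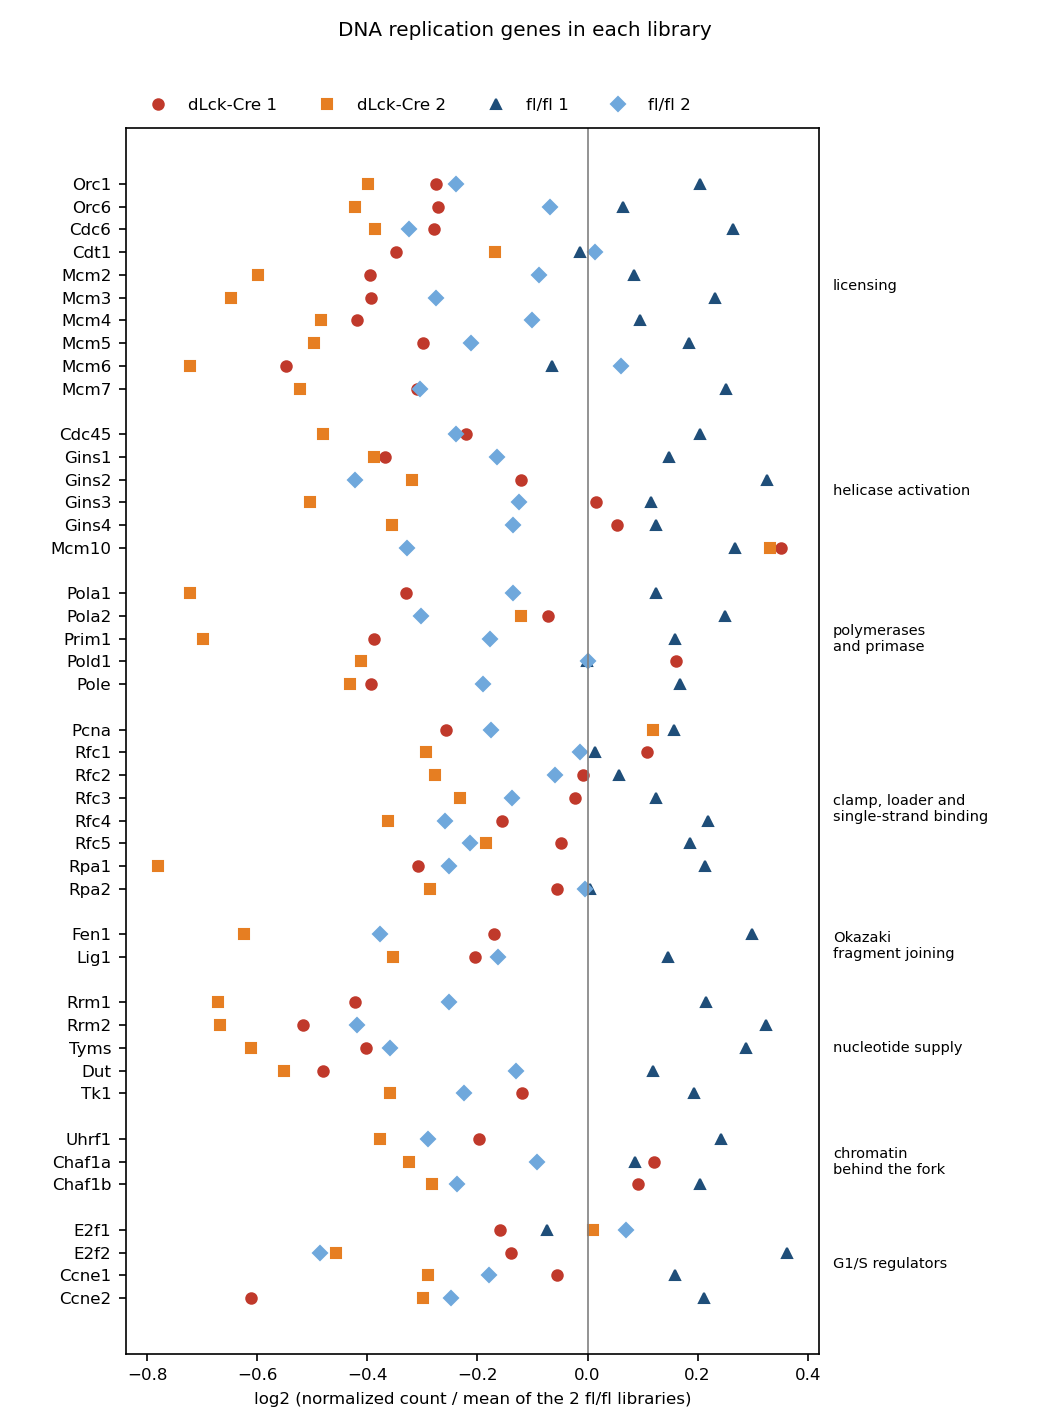
Normalized count of each of the 43 genes in each library, as log2 of its ratio to the mean of the 2 fl/fl libraries (line at 0), grouped by role. The first fl/fl library lies right of the second for 39 of 43 genes, and both dLck-Cre-labelled libraries lie left of both fl/fl libraries for 21.

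The largest group was licensing, and it held the 1 called gene. Mcm6 (chr1:128331590-128359664, minus strand), a subunit of the helicase ring, had 2922 and 2591 normalized counts in the dLck-Cre-labelled libraries, against 4089 and 4457 in the fl/fl libraries. It fell by 0.63 on the log2 scale (SE 0.13, 95% interval -0.95 to -0.32; adjusted p = 0.0371 by limma, 0.0463 by edgeR and 0.00541 by DESeq2). The groups were apart and each pair of replicates was close, with fl/fl replicate 2 the higher of its pair, unlike most of the other genes. The call did not hold without dLck-Cre replicate 2 (limma, log2 -0.55, adjusted p = 0.126), without fl/fl replicate 1 (-0.70, adjusted p = 0.0665) or without fl/fl replicate 2 (-0.57, adjusted p = 0.133).

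The other 5 ring subunits also had both dLck-Cre-labelled libraries below both fl/fl libraries, and none passed the test. Mcm2 had 1397 and 1214 in the dLck-Cre-labelled libraries, against 1948 and 1728 in the fl/fl libraries (log2 -0.49 ± 0.15, limma, adjusted p = 0.0894). Mcm4 had 1526 and 1458, against 2178 and 1901 in the fl/fl libraries (log2 -0.45 ± 0.14, adjusted p = 0.0998). For both genes the fl/fl replicates lay close together. The spread was wider for the next 3, in which fl/fl replicate 1 was well above replicate 2. Mcm3 had 1802 and 1509 in the dLck-Cre-labelled libraries, against 2776 and 1955 in the fl/fl libraries (log2 -0.50 ± 0.19, adjusted p = 0.17). Mcm5 had 2146 and 1870.4, against 3001 and 2281 in the fl/fl libraries (log2 -0.38 ± 0.17, adjusted p = 0.219). Mcm7 had 1826 and 1575, against 2694 and 1832 in the fl/fl libraries (log2 -0.39 ± 0.20, adjusted p = 0.284). In Mcm7 the higher dLck-Cre-labelled library and the lower fl/fl library were almost level. The loaders of the ring had smaller differences, -0.32 for Orc1 and -0.34 for Orc6, subunits of the origin recognition complex, -0.30 for the ATPase Cdc6 and -0.26 for Cdt1, which brings the helicase to the origin (limma, adjusted p between 0.250 and 0.473). All 10 licensing genes lay below 0, with a median of -0.39, and 9 of the 10, all but Cdc6, had groups that did not overlap, where 52.3% of all genes lay below 0 and 27.4% had groups apart in this direction.

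Helicase activation held the one gene on the other side of 0. Mcm10, which helps the assembled helicase to open DNA, had 391 and 386 in the dLck-Cre-labelled libraries, against 369 and 244 in the fl/fl libraries. Both dLck-Cre-labelled libraries were above both fl/fl libraries, but fl/fl replicate 1 was nearly as high, and the difference of 0.37 ± 0.23 had a 95% interval of -0.16 to 0.90 (limma, adjusted p = 0.368). Without fl/fl replicate 2 the difference was 0.07. Cdc45, the helicase cofactor, had 485 and 405 in the dLck-Cre-labelled libraries, against 652 and 479 in the fl/fl libraries (log2 -0.33 ± 0.20, adjusted p = 0.363), and the groups overlapped. Of the GINS subunits, Gins4 had the highest counts, with 554 and 417, against 582 and 486 in the fl/fl libraries. Differences of Gins1, Gins2, Gins3 and Gins4 were -0.37, -0.17, -0.24 and -0.14, none past the test, and of these 4 Gins1 alone had groups apart. Exons of another gene cover 67.3% of those of Gins2, so its reads are uncertain.

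Among the 5 polymerase and primase genes, whose median was -0.40, none passed the test. Pola1, the catalytic subunit of polymerase α, had 1306 and 995 in the dLck-Cre-labelled libraries, against 1789 and 1495 in the fl/fl libraries (log2 -0.52 ± 0.18, limma, adjusted p = 0.129). The primase subunit Prim1 differed by -0.53 and Pole, the leading-strand polymerase ε, by -0.40. These 3 had groups apart. Pola2, the second polymerase α subunit, lay at -0.07 and Pold1, the catalytic subunit of polymerase δ, at -0.13, and in both the groups overlapped.

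Clamp, clamp loader and single-strand binding genes lay near 0, with a median of -0.13 over 8 genes. Pcna had 4949.6 and 6424 in the dLck-Cre-labelled libraries, against 6594 and 5235 in the fl/fl libraries, so that the order of the libraries crossed the genotypes; it has 2 named pseudogenes, so its reads are uncertain. Its difference was -0.06 ± 0.18, with a 95% interval of -0.48 to 0.36 (limma, adjusted p = 0.878). The 5 RFC loader subunits Rfc1 to Rfc5 ranged from -0.24 (Rfc4) to -0.09 (Rfc1), and all 5 overlapped. Rpa1, the large subunit of the single-strand binding protein, stood apart from them with 2860.0 and 2059 in the dLck-Cre-labelled libraries, against 4103 and 2974 in the fl/fl libraries (log2 -0.53 ± 0.21, adjusted p = 0.183). The smaller subunit Rpa2 lay at -0.17. Neither RPA gene passed the test.

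Neither of the 2 genes that join Okazaki fragments passed the test. Lig1, the ligase that seals the fragments, had 751 and 677 in the dLck-Cre-labelled libraries, against 957 and 773 in the fl/fl libraries (log2 -0.27 ± 0.17, limma, adjusted p = 0.366). The flap nuclease Fen1 lay at -0.36, and an antisense gene covers 78.8% of its exons, so its reads are uncertain.

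Nucleotide supply had the lowest median of the 8 groups, -0.51, with 4 of 5 genes apart, where 27.4% of all genes were, and none past the test. Dut, which removes dUTP before it can enter DNA, had 1293 and 1230.3 in the dLck-Cre-labelled libraries, against 1959 and 1648 in the fl/fl libraries (log2 -0.51 ± 0.14, limma, adjusted p = 0.082). Rrm1, the large subunit of ribonucleotide reductase, had 2077 and 1748, against 3230.2 and 2336 in the fl/fl libraries (log2 -0.53 ± 0.18, adjusted p = 0.136). The S phase subunit Rrm2 had 1282 and 1154, against 2297 and 1371 in the fl/fl libraries (log2 -0.54 ± 0.23, adjusted p = 0.211). In Rrm2 the high value of fl/fl replicate 1 made most of the gap, while fl/fl replicate 2 was near the dLck-Cre-labelled libraries. Without fl/fl replicate 2, Rrm2 was the 1 member past the limma test (log2 -0.92, adjusted p = 0.0251), and without fl/fl replicate 1 its difference was -0.17. Tyms, which makes dTMP, lay at -0.47 and the salvage kinase Tk1 at -0.22.

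Chromatin genes overlapped between the groups in all 3 cases, and none passed the test. Uhrf1, which carries DNA methylation over to the new strand, had 1862 and 1643 in the dLck-Cre-labelled libraries, against 2522 and 1744 in the fl/fl libraries (log2 -0.26 ± 0.19, limma, adjusted p = 0.456). Chaf1a and Chaf1b, subunits of the histone chaperone that packs new DNA, lay at -0.10 and -0.08; 52.5% of the exon sequence of Chaf1a is shared with a neighbour. The 4 regulators of S phase entry had no call either. E2f1, an activating E2F factor, had 154 and 173 in the dLck-Cre-labelled libraries, against 163 and 180.1 in the fl/fl libraries (log2 -0.07 ± 0.21, adjusted p = 0.873), with interleaved libraries. E2f2, another activator, had 689 and 553, against 976 and 541 in the fl/fl libraries (log2 -0.24 ± 0.28, adjusted p = 0.656), where the fl/fl pair spanned both others. Ccne1, a cyclin that activates Cdk2 at S phase entry, had 256 and 218, against 297 and 235 in the fl/fl libraries (log2 -0.16 ± 0.21, adjusted p = 0.692). Its relative Ccne2 had 249.8 and 310.2, against 442 and 321 in the fl/fl libraries (log2 -0.44 ± 0.22, adjusted p = 0.281), and the groups were apart by a small margin.

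**Figure D4:**
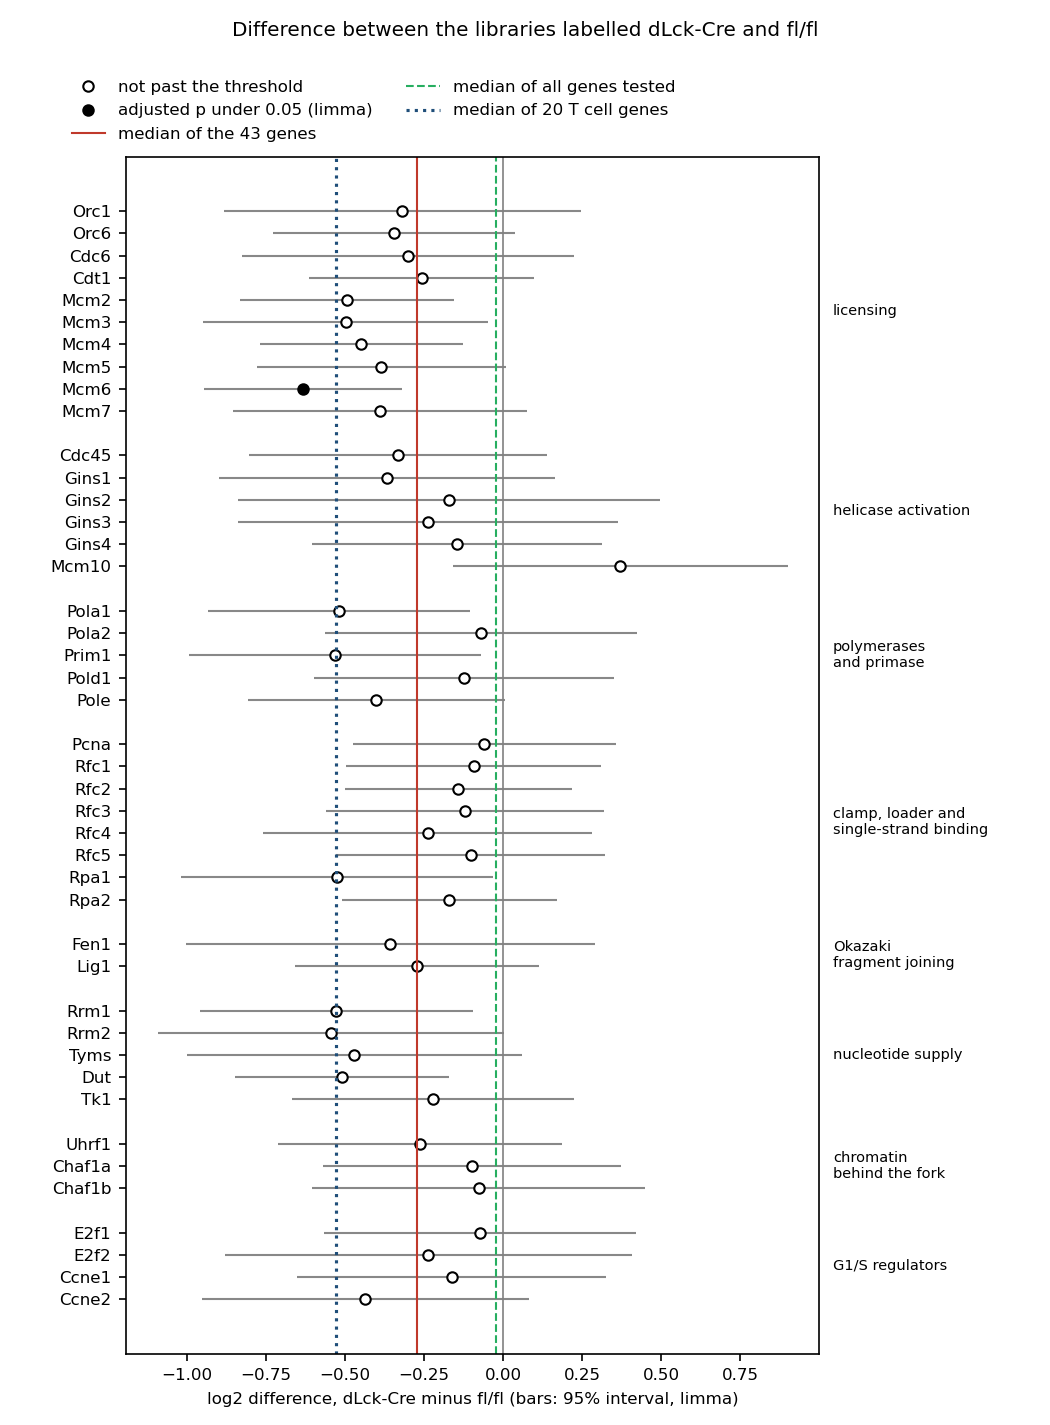
Difference of each of the 43 genes, dLck-Cre-labelled libraries minus fl/fl libraries on the log2 scale, with 95% limma intervals. Filled points passed the limma test; lines give the medians of the 43 genes (-0.27), of all genes tested (-0.02) and of 20 T cell genes (-0.53). Mcm6 is the 1 filled point, and Mcm10 is the 1 gene right of 0.

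Replicates of a group also differed in the replication genes, and mostly in 1 direction. Replicate 1 of dLck-Cre was above replicate 2 in 39 of 43 genes, where 49.1% of all genes were so ordered, with a median gap of 0.21 (log2). Replicate 1 of fl/fl was likewise above replicate 2 in 39 of 43 (49.3% of all genes), with a median gap of 0.36. The exceptions were Cdt1, Pcna, E2f1 and Ccne2 in dLck-Cre, and Cdt1, Mcm6, Pold1 and E2f1 in fl/fl. The sign of the gap was the same in both genotypes for 39 of the 43 genes, where 58.4% of all genes had the same sign. The gap between the dLck-Cre replicates was larger than the difference between the groups for 17 of the 43 genes, where 43.9% of all genes showed this. For the fl/fl replicates it was larger for 27 of the 43, where 41.3% of all genes showed this. Mitosis genes had the same order in 23 of 24 cases in each group. Of the myeloid genes, 19 of 20 were also higher in fl/fl replicate 1, and their part in this order was not tested. Without fl/fl replicate 1 the member median moved to -0.12, and without fl/fl replicate 2 to -0.53.

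Summed over the 43 genes, replication RNA made up 0.238% (exact 95% binomial interval 0.235% to 0.240%) and 0.206% (0.204% to 0.208%) of counts in the dLck-Cre-labelled libraries. The fl/fl libraries had 0.293% (0.291% to 0.296%) and 0.230% (0.228% to 0.232%). The means were 0.222% ± 0.0222 in the dLck-Cre-labelled libraries and 0.262% ± 0.0447 in the fl/fl libraries (SD, n = 2 each), and the groups overlapped (exact two-sided permutation test, p = 0.667; the smallest p that 2 against 2 allows is 0.333). The counting intervals do not overlap and are far narrower than the spread between replicates.

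The median difference of the T cell genes was -0.53, against -0.27 for the replication genes; the gap between these medians was not tested. T cell genes took 0.827% and 0.739% of counts in the dLck-Cre-labelled libraries, against 1.001% and 1.014% in the fl/fl libraries. The list includes Ptprc, which encodes CD45, a leukocyte protein not limited to T cells. Ptprc had the highest counts of the list, 39841 and 36146 in the dLck-Cre-labelled libraries, against 41632 and 45151 in the fl/fl libraries (log2 -0.19). It weighs most in the summed ratios and the scaling below, which were not computed without it. Divided by the summed T cell genes, the replication genes gave ratios of 0.287 and 0.279 in the dLck-Cre-labelled libraries, against 0.293 and 0.227 in the fl/fl libraries (1.09-fold, exact permutation test, p = 1). Without fl/fl replicate 2 the difference of these ratios turned from 0.0233 to -0.00974. Divided by Cd3e alone, they gave 39.6 and 32.8, against 35.9 and 25.1 in the fl/fl libraries (1.19-fold, exact permutation test, p = 0.667). Gene by gene, 13 of the 43 had both dLck-Cre-labelled libraries above both fl/fl libraries per Cd3e, where 73.6% of all genes did, and 0 had them below, where 1.64% did. Per Cd3e, Mcm6 overlapped, at 2.78 and 2.25 in the dLck-Cre-labelled libraries and 2.60 and 2.49 in the fl/fl libraries. Pcna was apart in the other direction, at 4.70 and 5.57, against 4.19 and 2.93. The activator E2f1 was apart as well, at 0.146 and 0.150, against 0.104 and 0.101.

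Scaling every library to its summed T cell genes moved the median of all genes tested to 0.45 and that of the replication genes to 0.21. The median of the replication genes stayed below that of all genes, while 34 of the 43 genes now lay above 0. Mcm2, Mcm3, Mcm6, Pola1, Prim1, Rpa1, Rrm1, Rrm2 and Dut stayed below 0 under this scaling. Mcm10 then passed the limma test as higher (log2 0.85, adjusted p = 0.0412), where 25.3% of all genes did, and Mcm6 did not pass (log2 -0.16, adjusted p = 0.364). Over all genes the calls were 948 higher and 202 lower as deposited (82.4% higher), and 4185 higher and 53 lower under this scaling (98.7% higher).

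**Figure D5:**
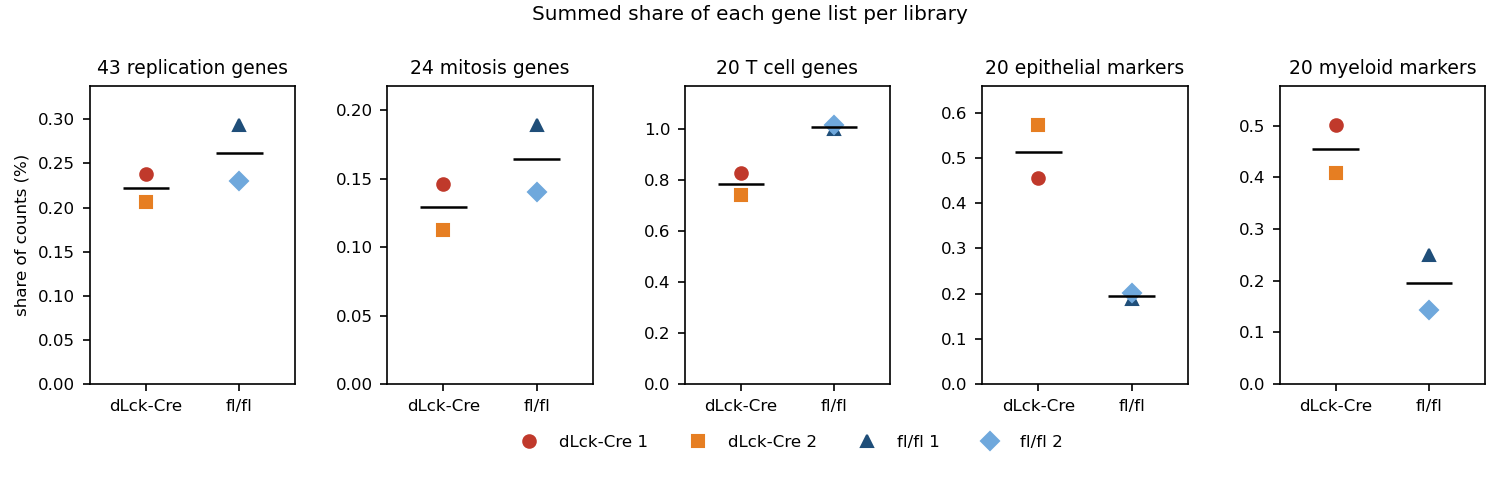
Share of counts (%) taken by the summed replication, mitosis, T cell, epithelial and myeloid genes in each of the 4 libraries, dLck-Cre-labelled libraries left of fl/fl, with a line at each group mean. The replication genes overlap between the groups (0.206% to 0.238%, against 0.230% to 0.293%), while the T cell genes lie lower and the epithelial and myeloid genes higher in the dLck-Cre-labelled libraries.

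The rest of the pathway was read from lists of 85 other replication and G1/S genes, CDK inhibitors included. Of the 85, 1 passed the limma test as higher and 1 as lower, with a median of -0.22. Over all genes tested 5.75% passed as higher and 1.22% as lower, and 52.3% lay below 0. At an unadjusted limma p under 0.05, 15% of all genes were higher and 8.9% lower. Of 14 other origin and firing genes none passed by limma, edgeR or DESeq2 (3 were lower at an unadjusted limma p under 0.05), and all lay below 0; Orc2 and Orc3, further ORC subunits, had differences of -0.43 and -0.44, the firing kinase subunit Dbf4 -0.37 and the firing factor Ticrr -0.39. Of 22 other fork genes 1 was lower. Donson, a fork protein that helps to load GINS, had 1014 and 1058 in the dLck-Cre-labelled libraries, against 1476 and 1645 in the fl/fl libraries, so the groups were apart (log2 -0.59 ± 0.14, limma, adjusted p = 0.0482). Pclaf, a Pcna partner, had the widest gap of that list, with 1715 and 1322, against 3667 and 2022 in the fl/fl libraries (log2 -0.85; adjusted p = 0.111 by limma and 0.0103 by DESeq2).

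Of 13 other nucleotide supply genes none passed by limma, edgeR or DESeq2, with 2 higher and 1 lower at an unadjusted limma p under 0.05. Samhd1, which degrades dNTPs, and Shmt1 of the folate cycle lay above 0, at 0.39 and 0.43, and the salvage kinase Dck below, at -0.43. None of 9 other chromatin genes passed by limma or edgeR (3 were lower at an unadjusted limma p under 0.05), 1 did by DESeq2, and all lay below 0. Hells, a chromatin remodeller that works with DNA methylation, had 1134 and 918 in the dLck-Cre-labelled libraries, against 1642 and 1511 in the fl/fl libraries (log2 -0.63 ± 0.16; adjusted p = 0.0567 by limma and 0.0205 by DESeq2). The histone chaperones Asf1a and Rbbp4 and the methyltransferase Dnmt1 lay at -0.53, -0.39 and -0.31.

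Of 20 other G1/S regulators 1 was higher. Ccnd1, cyclin D1, had 875 and 986 in the dLck-Cre-labelled libraries, against 298 and 492 in the fl/fl libraries (log2 1.28 ± 0.24, limma, adjusted p = 0.0301). Epithelial cells also express this cyclin, and the epithelial genes named above were higher in the same libraries; their part in this value was not tested. The pocket protein Rb1, which restrains E2F, lay at -0.54 (adjusted p = 0.0712 by limma and 0.0481 by DESeq2), cyclin A2 (Ccna2) at -0.61 and Fbxo5, an inhibitor of the anaphase-promoting complex, at -0.73; none of the 20 was lower by limma or edgeR, 2 were by DESeq2, and 6 were at an unadjusted limma p under 0.05. None of 7 CDK inhibitors passed by limma, edgeR or DESeq2, and DESeq2 gave no adjusted p for Cdkn1c. At an unadjusted limma p under 0.05, 2 were higher and 3 lower. Cdkn2d and Cdkn1b lay at -0.61 and -0.46, and Cdkn2b at 0.82. Cdkn1c lay at 1.05 on low counts, 26 and 29 in the dLck-Cre-labelled libraries, against 15 and 11 in the fl/fl libraries.

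Mitosis genes, the next step of the cycle, had a lower median than replication genes, -0.39. By limma 1 of 24 passed as lower, where 1.22% of all genes did, and 22 lay below 0, where 52.3% did. edgeR called 1 lower and DESeq2 2. At an unadjusted limma p under 0.05, 7 were lower, where 8.9% of all genes were. Cenpa, the centromeric histone, had 949 and 881 in the dLck-Cre-labelled libraries, against 1697 and 1783 in the fl/fl libraries (log2 -0.93 ± 0.13, limma, adjusted p = 0.0195). The spindle protein Nusap1, the topoisomerase Top2a and the checkpoint protein Mad2l1 lay at -0.80, -0.53 and -0.51. Whether replication and mitosis genes differed from each other was not tested.

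The promoter motif did not separate the members much. The 14 genes with an E2F motif had a median difference of -0.29 (range -0.63 to -0.12) and the 22 without one of -0.23 (range -0.54 to 0.37), while over all genes the medians were -0.10 for 481 with the motif and 0.01 for 10415 without. Mcm6, with 3 matches in its printed bases, had the lowest difference of the 43, and Mcm10, with none, the highest.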

How the data were processed

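Total RNA of sorted colonic CD4+ T cells was sequenced, 2 libraries per genotype. Per the submitters' processing notes the genome build was mm10; which aligner, counter, strand setting and annotation were used is not given in the sources used here. What the authors deposited is a normalized signal, each gene's count over a size factor of its library, as read from the values: 100% were whole multiples of 1 step per library (tolerance 1e-06). The recovered reads came to 16777017 and 22422971 in the dLck-Cre-labelled libraries and 18517974 and 17666457 in the fl/fl libraries.

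Values were tested as log2(normalized count + 1) with limma 3.58.1 (intensity trend, R 4.3.3) over the 16490 genes with a mean of at least 10, with Benjamini-Hochberg adjustment and 0.05 as threshold. A difference is dLck-Cre minus fl/fl on that scale, which understates the change of low genes. edgeR 4.0.16 and DESeq2 1.42.0 were run on the recovered reads; these and the other alternatives appear in the closing section. The limma, edgeR and DESeq2 fits were tested on simulated counts, and the other steps were not. The labels do not say that replicates came from separate animals. A p-value here sets a group difference against the spread between these libraries, which may be in part technical. That spread may not stand for the spread between animals. Exact (Clopper-Pearson) 95% intervals of shares hold for counting error alone: without molecular identifiers, reads may be copies of 1 molecule.

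The members and lists were chosen with earlier results of these data known. Values in every library are given for members past the threshold by any of the 3 tools, for the member with the lowest p and that with the highest mean in each role group, and for Pcna, Mcm2 to Mcm7, E2f1, Ccne1 and Rrm2; Mcm10 was added after its values were seen. Of each other list up to 4 genes with the lowest p are named, and some genes that this takes are left out. Pclaf is listed in the table under an older name. For 15 members, exons overlap those of another gene (in Gins2 67.3% and in Chaf1a 52.5% of the exon union), and Pcna and Tyms have named pseudogenes, so these counts are uncertain. Protein sequences were not analysed here.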

Additional observations from a re-analysis of the deposited data

How the results depend on the processing

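The count of 1 lower replication gene was the same under pseudocounts of 0.5 and 5, no filter, a mean of at least 50, TMM, edgeR and DESeq2. It was larger with the replicate number as a block, as given below. It was 0 under quantile normalization (10 at an unadjusted p under 0.05), limma without trend (3) and scaling to T cell genes, and between 0 and 1 without each library in turn (0 without dLck-Cre replicate 2 or fl/fl replicate 1, with 4 and 1 at an unadjusted p under 0.05). Mcm6 was not past the threshold under quantile normalization (log2 -0.49, limma, adjusted p = 0.107) or without trend (adjusted p = 0.157). The higher count was 1 under scaling to T cell genes and 0 under the other settings. All genes called numbered 1150, against 408 under quantile normalization, 4238 under scaling to T cell genes, 0 without trend (3443 at an unadjusted p under 0.05), 1768 by DESeq2 and 0 to 1231 without each library; it was 0 without dLck-Cre replicate 2 (2810 at an unadjusted p under 0.05). The Cd3e call was also lost under scaling to T cell genes (limma, adjusted p = 0.52). The cause of these changes was not tested.

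The member median was -0.53 to -0.12 without each library and 0.21 under scaling to T cell genes. The summed share differed by -0.0714 to -0.0081 percentage points without each library, and the ratio to T cell genes by -0.00974 to 0.0564.

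Pcna turned to 0.10 under quantile normalization. Scaling to T cell genes turned Orc1 to 0.16, Orc6 to 0.13, Cdc6 to 0.17, Cdt1 to 0.22, Mcm4 to 0.029, Mcm5 to 0.093, Mcm7 to 0.088, Cdc45 to 0.14, Gins1 to 0.11, Gins2 to 0.30, Gins3 to 0.24, Gins4 to 0.33, Pola2 to 0.41, Pold1 to 0.35, Pole to 0.076, Pcna to 0.42, Rfc1 to 0.38, Rfc2 to 0.34, Rfc3 to 0.36, Rfc4 to 0.24, Rfc5 to 0.37, Rpa2 to 0.31, Fen1 to 0.12, Lig1 to 0.21, Tyms to 0.0069, Tk1 to 0.25, Uhrf1 to 0.22, Chaf1a to 0.38, Chaf1b to 0.40, E2f1 to 0.40, E2f2 to 0.24, Ccne1 to 0.31 and Ccne2 to 0.041. The genes that changed sign when 1 library was left out were these. Pcna ranged from -0.25 to 0.13, E2f1 from -0.16 to 0.0109, Gins2 from -0.54 to 0.20, Gins3 from -0.50 to 0.021, Gins4 from -0.35 to 0.059, Pola2 from -0.35 to 0.21, Pold1 from -0.41 to 0.16, Rfc1 from -0.29 to 0.11, Rfc3 from -0.25 to 0.0105, Rfc5 from -0.30 to 0.10, Uhrf1 from -0.53 to 0.00377, Chaf1a from -0.32 to 0.12, Chaf1b from -0.30 to 0.14, E2f2 from -0.66 to 0.19 and Ccne1 from -0.33 to 0.00516.

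The replicate numbers are shared by the genotypes, but no source says that they pair the samples. Across genes, deviations of same-numbered libraries had r = 0.110 over all genes and 0.046 over the members, a measure that leaves out a shift common to the members. The sign of replicate 1 minus replicate 2 was the same in both genotypes for 39 of 43 members, where 58.4% of all genes had the same sign. With the replicate number as a block, limma called 8 members lower (Mcm2, Mcm3, Mcm4, Mcm6, Pola1, Rpa1, Rrm1 and Dut). It called 2096 genes in all, both directions together. The share of all genes lower under this fit is not given here, so the 8 cannot be set against it.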

Other observations

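Of the 43 replication genes, 5 had a neighbour that starts within 1000 bases on the other strand and so may share a promoter region, against 8.76% of 13065 genes. These pairs were Gins1 with Abhd12, Orc1 with Prpf38a, Pole with Pxmp2, Rpa1 with Smyd4 and Mcm4 with Prkdc. No neighbour passed the limma test, and their differences between the dLck-Cre-labelled libraries and the fl/fl libraries lay at -0.19, -0.16, -0.08, -0.36 and -0.21 on the log2 scale. In each pair the neighbour's difference was nearer to 0 than that of the replication gene.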
